A study of Mus musculus with 8 samples.

Results

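The genes described here are 38 genes of 3 linked pathways of sugar and serine metabolism, read from arrays of activated mouse CD4 T cells labelled as wild type or as lacking the repressor Bcl6. They were listed by name: 24 of glycolysis (glucose and lactate transporters and the regulator Hif1a included), 7 of the pentose phosphate pathway and 7 of serine synthesis and one-carbon metabolism. A member was measured where at least 1 probe set carried its symbol alone in the platform annotation, and where several did, the one with the highest mean was used. This gave 34 of the 38, among 19938 genes with such a probe set on the array: 21 of glycolysis, 6 of the pentose phosphate pathway and all 7 of one-carbon metabolism. All 34 lay above the expression filter in all 8 arrays and were tested. Gapdh was named only in 25 probe sets that each list 4 to 8 symbols, so it has no value here. Gpi1, Eno1 and G6pdx had no probe set of their own in the annotation used and were not analysed here.

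Sorted naive CD4 cells came from wild type mice (WT) or from mice labelled as T cell-specific conditional Bcl6-/- (KO). All were stimulated through CD3 and CD28 with antibodies for 24 hours, in the presence of IL-6 and IL-21 and of antibodies that neutralise IL-4, IFNg and TGFb. RNA of 4 samples per genotype was hybridised to 1 array each, and the labels call the cultured cells follicular helper T (Tfh) cells. The Cre line, the strain and age of the mice and whether the 4 samples of a group came from separate mice are not given in the sources used here, so the p-values speak to the variation among these samples only, part of which may be technical.

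The gene that the labels name as deleted did not read lower in the KO-labelled arrays. Bcl6 stood at 8.61, 8.91, 8.78 and 8.79 in the WT-labelled arrays and at 9.08, 9.15, 9.18 and 9.19 in the KO-labelled arrays (log2 signal). Every KO-labelled value lay above every WT-labelled value, by 0.38 ± 0.0645 between the means (SE, limma adjusted p = 0.0303). Which exons the deletion removes and which exons the single Bcl6 probe set reads are not given in the sources used here, so this value neither checks the labels nor shows a deletion. All directions below are those of the arrays as labelled.

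Glycolysis converts glucose to pyruvate and lactate, and naive T cells raise its transporters and enzymes steeply when they are activated. The pentose phosphate pathway branches off at glucose 6-phosphate and yields NADPH and ribose for nucleotides. Serine is made from a glycolytic intermediate and feeds the folate cycle, which supplies one-carbon units for purines and thymidylate. Hif1a and Myc are known activators of glycolytic genes, and Bcl6 has been described as a repressor of glycolytic genes in T cells.

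The arrays resembled each other closely (r between 0.986 and 0.998 across tested genes). KO replicate 1 stood apart: its genes deviated from their group means by a median of 0.115 log2 units, and those of the other 7 arrays by 0.035 to 0.0725, and the array nearest to it was WT replicate 3. Results are therefore also given without KO replicate 1. All 12 measured T cell markers, Cd3e and Cd4 among them, lay between 10.44 and 13.44 (log2 signal) in every array. Under the filter lay 5 of 7 measured B cell markers, 11 of 12 myeloid markers, 2 of 3 erythroid markers and 4 of 6 NK cell markers. Averaged over each list, markers of CD8 and NK cells were lower in the KO-labelled arrays. The mean log2 signal of the 6 CD8 T cell markers was 8.20 to 8.53 in WT and 8.05 to 8.15 in KO-labelled arrays. That of the 6 NK cell markers was 6.65 to 6.92 and 6.42 to 6.57. Not every marker was lower. KO-labelled means were slightly higher for Cd8b1 (9.62 against 9.59) and, under the filter, for Ncr1 (5.67 against 5.64) and Klrb1c (4.64 against 4.60). No CD8 or NK cell marker passed over all 8 arrays without weights. Ctsw (limma adjusted p = 0.0696), Crtam (0.0763), Nkg7 (0.0947) and Prf1 (0.102) did not overlap between the groups, as held for 10.8% of all tested genes. The defining Cd8a (7.05 to 7.73 in WT, 7.06 to 7.59 in KO-labelled arrays) and Cd8b1 did overlap. Crtam passed without KO replicate 1 (-0.41, limma adjusted p = 0.0199), and with limma's array weights, which count KO replicate 1 least, all 4 did (0.0037 to 0.00911). Eomes, whose groups overlapped (-0.37, limma adjusted p = 0.232), passed with array weights too (0.037). Among T cell markers only Zap70 (-0.18, 0.0224) and Cd247 (-0.19, 0.0467) passed in that fit. Klrd1, under the filter, was lower with no overlap (5.65 to 6.14 in WT, 5.35 to 5.59 in KO-labelled arrays). None of the 8 activated T cell markers passed over all arrays without weights. Mki67, a proliferation marker, differed by 0.20 (adjusted p = 0.14, and 0.0374 without KO replicate 1), Il2ra by 0.11 with no overlap (0.268) and Nr4a1 by -0.23 (0.184). With array weights Mki67, Il2ra and Nr4a1 passed as well (limma adjusted p = 0.00546, 0.0362 and 0.022). In that fit 16.6% of all tested genes passed. The part of these markers in the results below was not tested.

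No member of the 3 pathways passed the threshold between KO-labelled and WT-labelled arrays, a limma adjusted p under 0.05 over all 11926 tested genes. Of all tested genes 1.32% passed (157 genes), 0.646% higher and 0.671% lower in KO-labelled arrays, so a list of 34 that behaved like the rest would hold few calls or none. The count of members was also 0 without KO replicate 1, where 6.56% of all genes passed (3.88% higher, 2.67% lower), and in each of the other fits that left 1 array out. An unadjusted p under 0.05 was reached by 7 of 34 members (20.6%), against 16.6% of all genes, and 7 of 34 without KO replicate 1, against 27.2%. The 7 over all arrays were Hk2, Slc16a3 and Phgdh, with higher means in KO-labelled arrays, and Pfkfb3, Pfkp, Aldoc and Psph, with lower means. The 4 KO-labelled values did not overlap the 4 WT-labelled values in 2 members, Pfkfb3 and Psph, against 10.8% of all tested genes. Differences were small: their median size over the 34 members was 0.064 on the log2 scale, beside 0.065 over all tested genes. The 95% intervals of all 34 lay between -0.43 and 0.46, or 0.743-fold and 1.37-fold, and those of 25 members lay within 0.25 of 0. In bulk RNA, fewer cells that express a gene and less RNA of it per cell cannot be told apart.

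**Figure D1:**
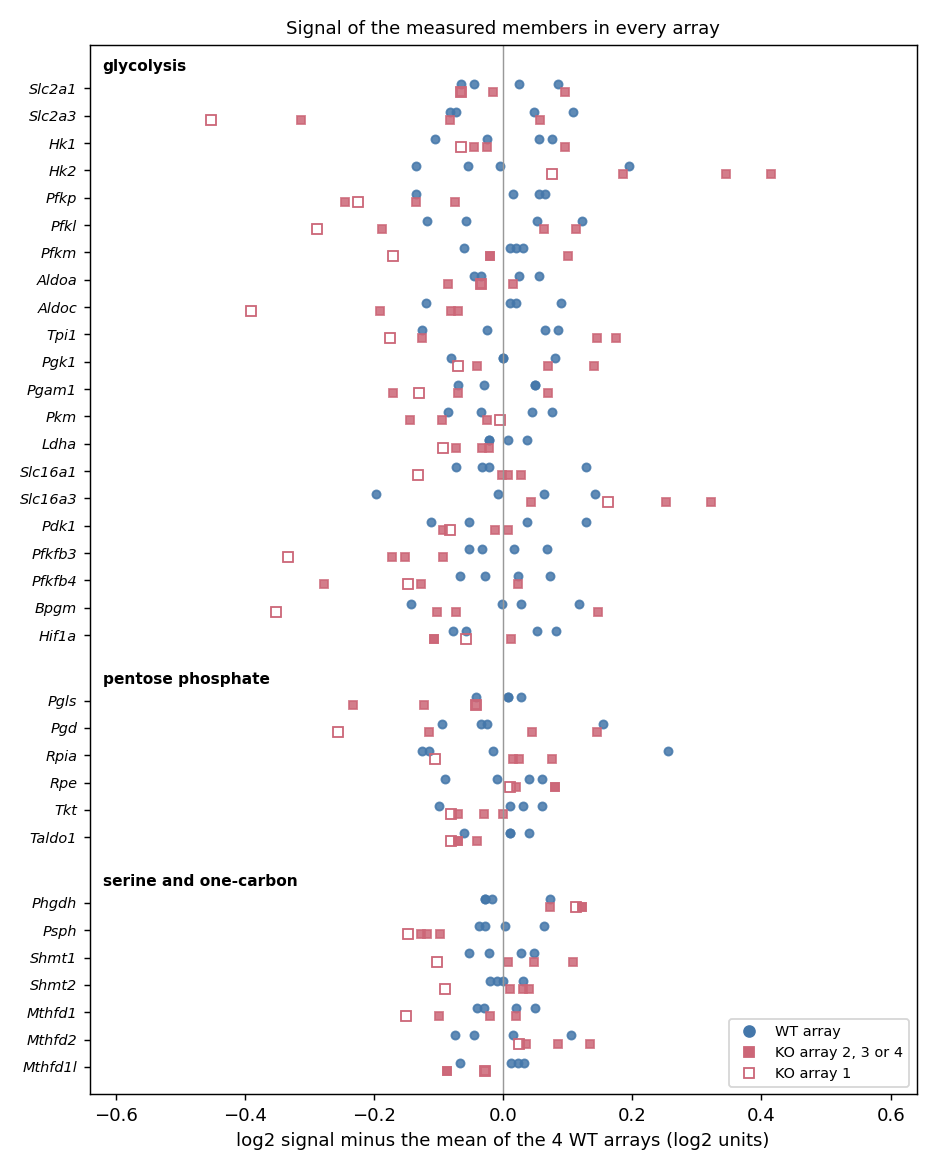
Log2 signal of each measured member in every array, as the distance from the mean of the 4 WT-labelled arrays (horizontal axis, log2 units; circles WT, squares KO, open square KO replicate 1). The squares of Pfkfb3 and Psph lie wholly left of their circles, and KO replicate 1 is the lowest KO-labelled array, or tied lowest, for 23 of the 34 members. KO replicate 1 also read low over all tested genes. Their median distance from their own means over all arrays was -0.06 there, and -0.012 to 0.021 in the other KO-labelled arrays. The share of all tested genes with their lowest KO-labelled value in KO replicate 1 was not counted.

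Promoter sequences are shown for the member with the smallest p of each pathway, because the regulators named above bind short motifs that can be looked up in them. A window of 300 bases, 250 before and 50 after each annotated start, was available from RefSeq (build GRCm38.p6) for 37 of the 38 members, in 51 windows; Slc2a3 has none in the table. The 250 bases before the start are printed 5′ to 3′, in lower case, and capitals mark every match to the motifs searched on both strands: CACGTG (the E-box, bound by Myc), ACGTG or GCGTG (the hypoxia response core bound by Hif1a, which the E-box contains), TGATGNAA (a composite site bound by Atf4), TTCCTNGAA (Bcl6) and TTCNNNGAA (STAT factors, which overlaps every Bcl6 match). Pfkfb3 has 2 annotated starts.
Pfkfb3, chr2:11553930-11554179, minus strand: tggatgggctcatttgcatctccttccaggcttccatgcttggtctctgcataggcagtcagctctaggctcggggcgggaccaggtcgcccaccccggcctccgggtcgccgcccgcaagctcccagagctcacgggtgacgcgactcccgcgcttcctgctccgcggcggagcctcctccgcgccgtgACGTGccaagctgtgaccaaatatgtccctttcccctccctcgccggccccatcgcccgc
Pfkfb3, chr2:11502091-11502340, minus strand: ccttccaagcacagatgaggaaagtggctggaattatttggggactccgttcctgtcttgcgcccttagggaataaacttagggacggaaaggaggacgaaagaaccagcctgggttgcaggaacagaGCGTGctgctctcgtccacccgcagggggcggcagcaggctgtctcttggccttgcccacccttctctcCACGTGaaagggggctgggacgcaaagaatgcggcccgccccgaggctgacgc
Pgls, chr8:71591934-71592183, plus strand: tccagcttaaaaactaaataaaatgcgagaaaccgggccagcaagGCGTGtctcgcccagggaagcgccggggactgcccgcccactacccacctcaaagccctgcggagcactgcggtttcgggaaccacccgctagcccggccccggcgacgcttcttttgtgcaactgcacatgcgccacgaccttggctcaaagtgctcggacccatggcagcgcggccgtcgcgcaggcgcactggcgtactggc
Psph, chr5:129787254-129787503, minus strand: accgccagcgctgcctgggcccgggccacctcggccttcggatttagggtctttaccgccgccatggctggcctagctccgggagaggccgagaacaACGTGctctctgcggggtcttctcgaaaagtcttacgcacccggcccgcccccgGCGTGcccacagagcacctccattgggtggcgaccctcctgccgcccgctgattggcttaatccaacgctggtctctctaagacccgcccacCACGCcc

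The hypoxia core was present in 40 of the members' 51 windows (78.4%), against 43.8% of all 32851 windows in the table, and the E-box in 5 (9.8% against 7.15%). The median GC content of the members' windows was 60.7%, against 52.7% for all, and the part of base composition in these shares was not tested. The composite Atf4 motif was in none of the 51 windows and in 3.97% of all. The Bcl6 motif was in 2 windows (3.92%, against 1.59% of all), of Aldoc and Pfkm, and the STAT motif in 3 (5.88%, against 8.3%). Both windows with a Bcl6 motif are shown for that motif, not for their values.
Aldoc, chr11:78323948-78324197, plus strand: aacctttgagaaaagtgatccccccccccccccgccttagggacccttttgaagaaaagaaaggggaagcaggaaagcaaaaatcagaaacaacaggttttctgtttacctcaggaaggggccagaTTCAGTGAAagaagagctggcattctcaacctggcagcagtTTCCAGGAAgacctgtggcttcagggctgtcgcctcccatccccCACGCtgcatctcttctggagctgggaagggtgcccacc
Pfkm, chr15:98108221-98108470, plus strand: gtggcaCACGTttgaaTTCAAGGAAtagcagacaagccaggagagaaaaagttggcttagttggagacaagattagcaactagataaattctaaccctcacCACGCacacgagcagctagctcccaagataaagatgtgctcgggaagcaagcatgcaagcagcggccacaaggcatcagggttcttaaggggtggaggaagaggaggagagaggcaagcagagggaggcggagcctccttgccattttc

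In Aldoc the Bcl6 match begins 83 bases before the start and in Pfkm 234 bases before it. Aldoc, the brain-type aldolase, had a log2 signal of 8.13, 7.92, 8.05 and 8.06 in WT replicates 1 to 4 and of 7.65, 7.85, 7.96 and 7.97 in KO replicates 1 to 4. KO replicates 3 and 4 lay above WT replicate 2, so the groups overlap. The difference of -0.18 ± 0.0775 (SE) did not pass (limma adjusted p = 0.274) and was -0.11 without KO replicate 1. Pfkm, the muscle-type phosphofructokinase, differed by -0.03 (8.74 ± 0.0408 in WT and 8.71 ± 0.111 in KO, SD, n = 4, adjusted p = 0.889). A motif match is a description of these letters and not evidence of binding.

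Glucose enters through the transporters, and neither of those measured passed the test. Slc2a1, the main glucose transporter of activated T cells, stood at 12.23, 12.21, 12.36 and 12.30 in the WT-labelled arrays and at 12.21, 12.21, 12.37 and 12.26 in the KO-labelled arrays. The 2 sets of values cover each other, and the difference was -0.01 ± 0.0552 (SE, limma adjusted p = 0.949). Slc2a3, a second glucose transporter of high affinity, was lower in KO replicates 1 and 2 (10.11 and 10.25) than in any other array, while KO replicates 3 and 4 (10.62 and 10.48) lay within the WT range of 10.48 to 10.67. Its difference of -0.20 ± 0.104 did not pass (adjusted p = 0.387) and was -0.11 without KO replicate 1.

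Hexokinase 2, which phosphorylates glucose and is induced on activation, had the largest positive difference of any member. Its signal was 9.69, 9.56, 9.64 and 9.89 in the WT-labelled arrays and 9.77, 9.88, 10.04 and 10.11 in the KO-labelled arrays. KO replicates 3 and 4 lay above all WT-labelled values, KO replicate 2 just under the highest WT-labelled value, and KO replicate 1 among the WT-labelled values. The means, 9.70 ± 0.141 and 9.95 ± 0.154 (SD, n = 4), differed by 0.26 ± 0.0899 (SE; 95% interval 0.05 to 0.46; limma adjusted p = 0.194, exact permutation p = 0.0857, two-sided). Without KO replicate 1 the difference was 0.32 and the limma adjusted p 0.0506. With limma's array weights, which gave KO replicate 1 a weight of 0.176 and the other arrays 0.617 to 3.32, Hk2 passed (difference 0.36, adjusted p = 0.00683). In that fit 16.6% of all genes passed (8.47% higher, 8.13% lower), and 4 of the 34 members did.

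Hk1, the housekeeping hexokinase, has 2 probe sets that differ by up to 2.54 in log2 signal. The set with the higher mean (13.6) carries a single accession, which 16 other probe sets list for Hk1 together with the ribosomal protein gene Rpl17, and its neighbours in probe set number lie on chromosome 14. The other set, at a mean of 11.14 in both groups, has neighbours on chromosome 10, where Hk1 lies. Probe set numbers follow chromosome order on this array: for 99.8% of 18862 genes with 1 probe set, the commonest chromosome among the 10 neighbours on either side was the gene's own. Neither set passed, with differences of -0.01 ± 0.0573 for the first and 0.01 ± 0.0433 for the second (SE; limma adjusted p = 0.961 and 0.962 over all named probe sets).

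Phosphofructokinase commits sugar to glycolysis, and fructose 2,6-bisphosphate, made and degraded by the Pfkfb enzymes, activates it. Pfkp, the platelet-type subunit, had 11.46, 11.31, 11.50 and 11.51 in the WT-labelled arrays and 11.22, 11.20, 11.37 and 11.31 in the KO-labelled arrays. The lowest WT-labelled value ties with KO replicate 4 and is below KO replicate 3, so the groups overlap. Pfkp differed by -0.17 ± 0.0611 (SE; interval -0.31 to -0.03; limma adjusted p = 0.202), whereas Pfkl, the liver-type subunit, differed by -0.08 ± 0.0944 with KO replicates 1 and 2 below the WT range and KO replicates 3 and 4 inside it. The difference of Pfkl was -0.0042 without KO replicate 1.

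Pfkfb3, the inducible activator of this step, had the smallest p of all members. Its signal was 9.69, 9.57, 9.64 and 9.59 in the WT-labelled arrays and 9.29, 9.47, 9.53 and 9.45 in the KO-labelled arrays. Every KO-labelled value lay below every WT-labelled value, with KO replicate 1 the farthest away. The difference was -0.19 ± 0.0592 (SE; interval -0.32 to -0.06), a 0.878-fold level (adjusted p of 0.151 by limma; exact permutation test, p = 0.0286, the lowest possible with 4 arrays against 4). Without KO replicate 1 it was -0.14, with an adjusted p of 0.0949. Pfkfb4, a related enzyme, differed by -0.13 ± 0.0658 (adjusted p = 0.355).

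**Figure D2:**
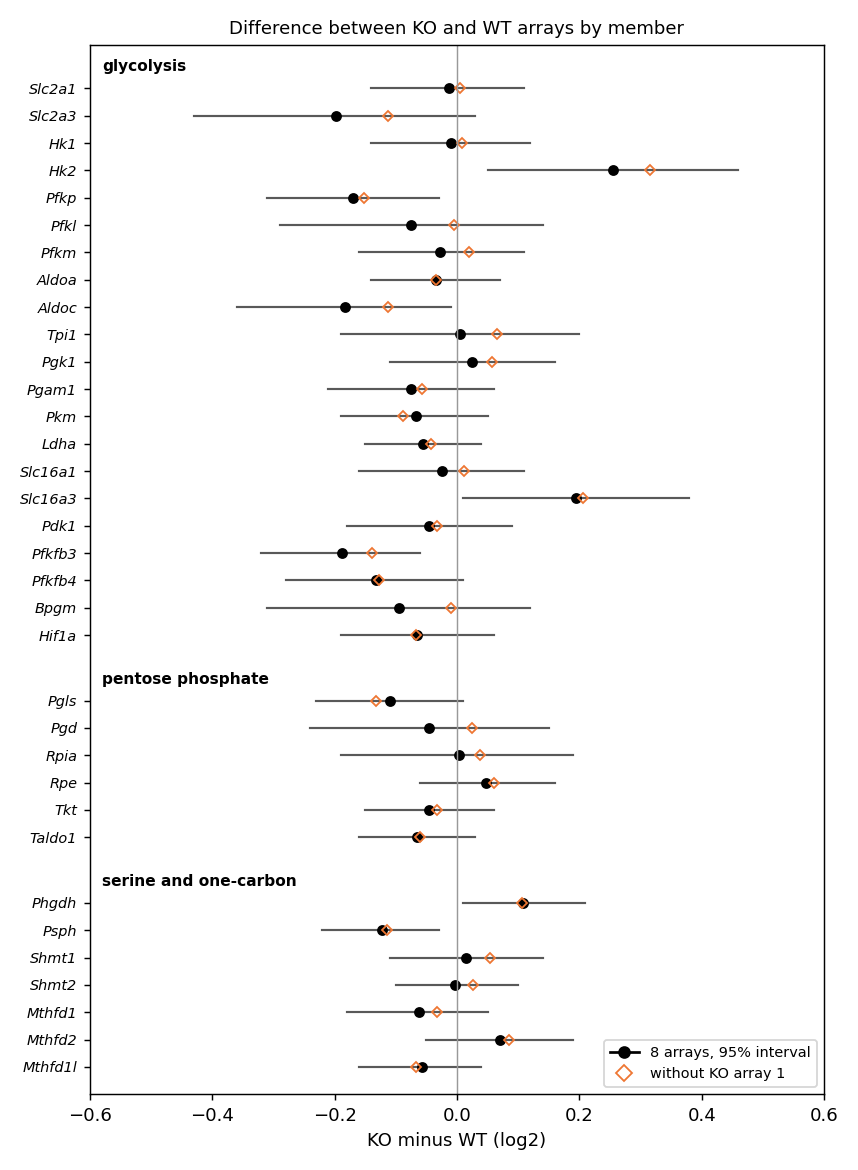
KO minus WT difference on the log2 scale for each measured member over 8 arrays (points, lines for the 95% interval) and without KO replicate 1 (diamonds). Intervals of Hk2, Slc16a3 and Phgdh lie right of 0 and those of Pfkfb3, Pfkp, Aldoc and Psph left of it, before adjustment for 11926 genes.

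From aldolase to lactate dehydrogenase, Aldoc was the one measured member with an unadjusted p under 0.05. Aldoa, the main aldolase, differed by -0.04, Tpi1, triosephosphate isomerase, by 0.005, Pgk1, phosphoglycerate kinase, by 0.025, Pgam1, phosphoglycerate mutase, by -0.08 and Pkm, the muscle-type pyruvate kinase gene, by -0.07, with limma adjusted p from 0.612 to 0.991. Pgk1, Pgam1 and Pkm have 3, 3 and 2 probe sets, and for each the set with the highest mean has neighbours on another chromosome than the gene. The sets of Pgk1 differ by at most 0.01 in any array. For all 3 genes the set on the gene's own chromosome differed in the same direction (0.03, -0.09 and -0.09).

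Ldha, which reduces pyruvate to lactate, stood at 14.10, 14.10, 14.16 and 14.13 in the WT-labelled arrays and at 14.03, 14.05, 14.09 and 14.10 in the KO-labelled arrays. KO-labelled values reached only the lowest WT-labelled values, and the KO-labelled level was 0.963-fold (-0.06 ± 0.042, SE, limma adjusted p = 0.591). Pdk1, a kinase that inhibits pyruvate dehydrogenase, differed by -0.05 (adjusted p = 0.79), and Bpgm, which makes 2,3-bisphosphoglycerate, by -0.10 (0.71). The difference of Bpgm was -0.0092 without KO replicate 1.

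Lactate leaves through monocarboxylate transporters. Slc16a3, the lactate exporter MCT4, had 10.67, 10.33, 10.52 and 10.59 in the WT-labelled arrays and 10.69, 10.57, 10.85 and 10.78 in the KO-labelled arrays. Replicates 1, 3 and 4 of KO lay above all WT-labelled values and KO replicate 2 among them, so the groups overlap in 1 array. The difference was 0.20 ± 0.0831 (SE; interval 0.01 to 0.38; limma adjusted p = 0.276) and 0.21 without KO replicate 1. With array weights it was 0.30, which passed (adjusted p = 0.0406). Slc16a1, the transporter MCT1, differed by -0.03 ± 0.0587 (adjusted p = 0.898).

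Hif1a, the oxygen-regulated subunit of the factor that activates many of these genes, was 13.10, 12.94, 12.96 and 13.07 in the WT-labelled arrays and 12.96, 12.91, 13.03 and 12.91 in the KO-labelled arrays. The values of the groups intermingle (-0.07 ± 0.054, SE, limma adjusted p = 0.628). Its protein is controlled mainly by degradation, which mRNA does not show.

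Over glycolysis as a whole, 17 of 21 measured members had a lower mean in KO-labelled arrays (81%), beside 57.8% of all tested genes. Their median difference was -0.055, beside -0.0175 for all tested genes. Both figures moved toward those of the array as a whole without KO replicate 1, when 13 of 21 were lower (54.5% of all genes) with a median of -0.033. Per array, the median distance of the 21 members from their own 8-array means was -0.083 and -0.068 in KO replicates 1 and 2 and 0.032 and 0.021 in KO replicates 3 and 4. In the WT-labelled arrays it was 0.045, -0.029, 0.024 and 0.085, so the groups overlap. Over all tested genes the same median was -0.06, -0.012, 0.006 and 0.021 in KO replicates 1 to 4, and 0.004 to 0.015 in the WT-labelled arrays.

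Of the 6 measured pentose phosphate enzymes none had an unadjusted p under 0.05, their differences ran from -0.11 to 0.05 with a median of -0.045, and 4 of 6 were lower in KO-labelled arrays. The median was -0.0042 without KO replicate 1, with 3 of 6 lower. Pgls, 6-phosphogluconolactonase of the oxidative branch, stood at 9.74, 9.81, 9.79 and 9.79 in the WT-labelled arrays and at 9.74, 9.74, 9.55 and 9.66 in the KO-labelled arrays. KO replicates 3 and 4 were the low ones, and KO replicates 1 and 2 equalled the lowest WT-labelled value. The difference was -0.11 ± 0.0533 (SE, limma adjusted p = 0.345), and with array weights -0.15, which passed narrowly (adjusted p = 0.0499). Pgd, the second NADPH-yielding enzyme of this branch, differed by -0.05 ± 0.0893 and was lowest in KO replicate 1 (11.42; the other 7 arrays 11.56 to 11.83), without which the difference was 0.025.

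In the branch that rearranges sugars, Taldo1, transaldolase, had 9.50, 9.43, 9.50 and 9.53 in the WT-labelled arrays and 9.41, 9.42, 9.45 and 9.42 in the KO-labelled arrays. Only KO replicate 3 exceeded the lowest WT-labelled value, and the difference was -0.07 ± 0.0423 (SE, limma adjusted p = 0.509). Tkt, transketolase, read 11.03, 11.16, 11.14 and 11.19 in the WT-labelled arrays and 11.05, 11.06, 11.13 and 11.10 in the KO-labelled arrays, with all KO-labelled values inside the WT range (-0.05 ± 0.0492, adjusted p = 0.732). Rpe, ribulose 5-phosphate epimerase, read 10.72, 10.85, 10.80 and 10.87 in the WT-labelled arrays and 10.82, 10.83, 10.89 and 10.89 in the KO-labelled arrays (0.05 ± 0.0486, adjusted p = 0.708). The values of WT and KO overlapped here as well. Rpia, ribose 5-phosphate isomerase, had a mean of 9.82 in both groups.

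**Figure D3:**
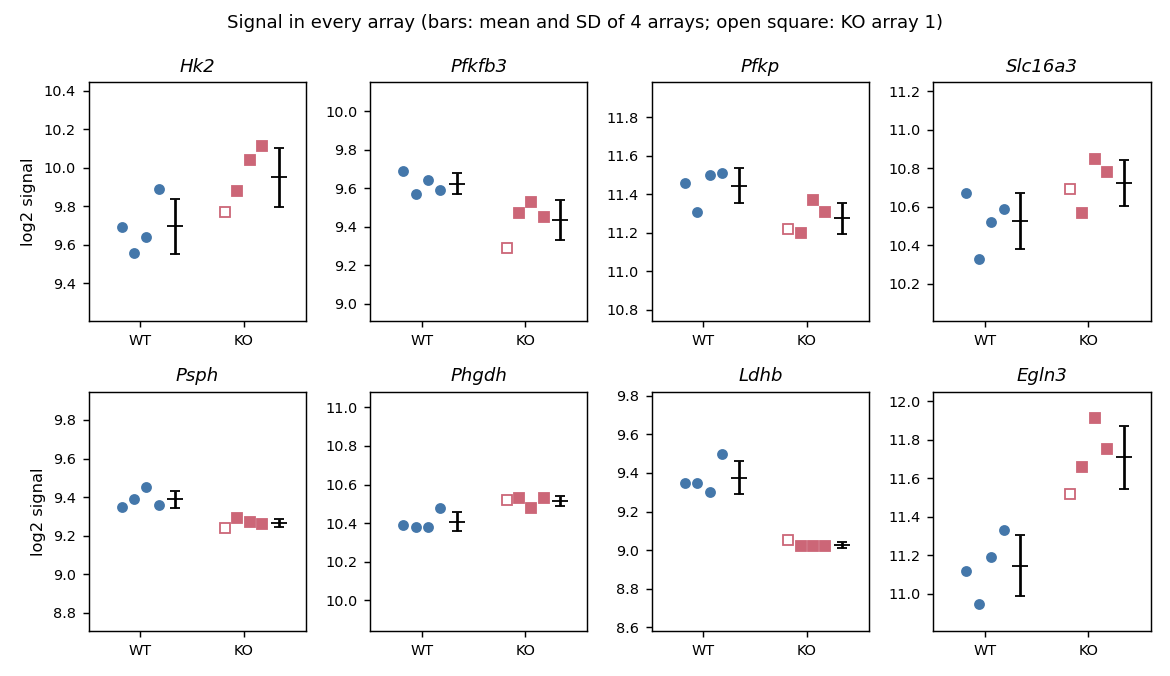
Log2 signal in every array for 6 members and 2 related genes, each panel spanning the same range of log2 units (circles WT, squares KO, open square KO replicate 1, bars mean and SD of 4 arrays). Pfkfb3, Psph, Ldhb and Egln3 show no overlap between the groups, whereas Hk2, Pfkp, Slc16a3 and Phgdh do.

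In serine synthesis, the enzymes at its start and end pointed in opposite directions, neither past the threshold. Phgdh, which takes 3-phosphoglycerate out of glycolysis as the first step, had 10.39, 10.38, 10.38 and 10.48 in the WT-labelled arrays and 10.52, 10.53, 10.48 and 10.53 in the KO-labelled arrays. All KO-labelled values lay above WT replicates 1 to 3, and WT replicate 4 equalled the lowest KO-labelled value. The difference was 0.11 ± 0.0438 (SE; interval 0.01 to 0.21; limma adjusted p = 0.253; exact permutation p = 0.0571).

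Psph, the phosphatase of the last step to serine, stood at 9.35, 9.39, 9.45 and 9.36 in the WT-labelled arrays and at 9.24, 9.29, 9.27 and 9.26 in the KO-labelled arrays. All KO-labelled values lay below all WT-labelled values, within a spread of 0.0208 (SD) around 9.26. The difference was -0.12 ± 0.0429 (SE; interval -0.22 to -0.03; limma adjusted p = 0.192; exact permutation p = 0.0286), a 0.919-fold level. It was -0.11 without KO replicate 1 (adjusted p = 0.124), and with array weights -0.12, which passed (adjusted p = 0.0439).

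Shmt1 and Shmt2, the cytosolic and mitochondrial enzymes that split serine into glycine and a one-carbon unit, did not pass. Shmt2 read 12.25, 12.24, 12.28 and 12.23 in the WT-labelled arrays and 12.16, 12.28, 12.26 and 12.29 in the KO-labelled arrays. KO replicate 1 was the lowest of the 8 and the difference -0.0025 ± 0.0456 (SE, limma adjusted p = 0.991), with an interval of -0.10 to 0.10. Mthfd2, the mitochondrial folate dehydrogenase that rises on activation, read 11.45, 11.48, 11.63 and 11.54 in the WT-labelled arrays and 11.55, 11.56, 11.66 and 11.61 in the KO-labelled arrays. The groups overlap, with a difference of 0.07 ± 0.0531 (adjusted p = 0.587). The cytosolic Mthfd1 and the mitochondrial formate-producing Mthfd1l each differed by -0.06 (adjusted p = 0.623 and 0.596), and Mthfd1 by -0.033 without KO replicate 1. Over the 7 members 3 had higher and 4 lower means in KO-labelled arrays, and the median difference was -0.0025. Without KO replicate 1 it was 0.027, with 4 higher and 3 lower.

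Related members can shift against each other within an array, which removes differences that all genes of the array share. The log2 ratio of Mthfd2 to Mthfd1 was 0.13 higher in KO-labelled arrays, at 0.18, 0.14, 0.12 and 0.10 above its WT mean, while the WT-labelled arrays spread from -0.04 to 0.06. These groups did not overlap. The ratio of Hk2 to the Hk1 set on its own chromosome was 0.25 higher in KO-labelled arrays, where KO replicate 1 (0.09) fell below WT replicate 4 (0.13). With the Hk1 set of the higher mean it was 0.265 higher. The groups then did not overlap (0.14 to 0.39 in KO-labelled and -0.11 to 0.12 in WT-labelled arrays), so overlap depends on the Hk1 set. The ratio of Slc2a1 to Slc2a3 was 0.39 and 0.25 above its WT mean in KO replicates 1 and 2, yet 0.04 and 0.07 in KO replicates 3 and 4. Mean ratios of Shmt2 to Shmt1 and of Pfkfb3 to Pfkfb4 moved by -0.02 and -0.06. For Pfkfb3 to Pfkfb4 the KO-labelled arrays (-0.19, 0.13, 0.03 and -0.20) spread wider than the WT-labelled arrays (-0.11 to 0.09). The ratio of Slc16a1 to Slc16a3 moved by -0.22, that of Aldoa to Aldoc by 0.147 and that of Pfkp to Pfkl by -0.095, all with overlap between the groups. No test was run on the 8 ratios, and a ratio shows unequal change, not which gene changed.

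**Figure D4:**
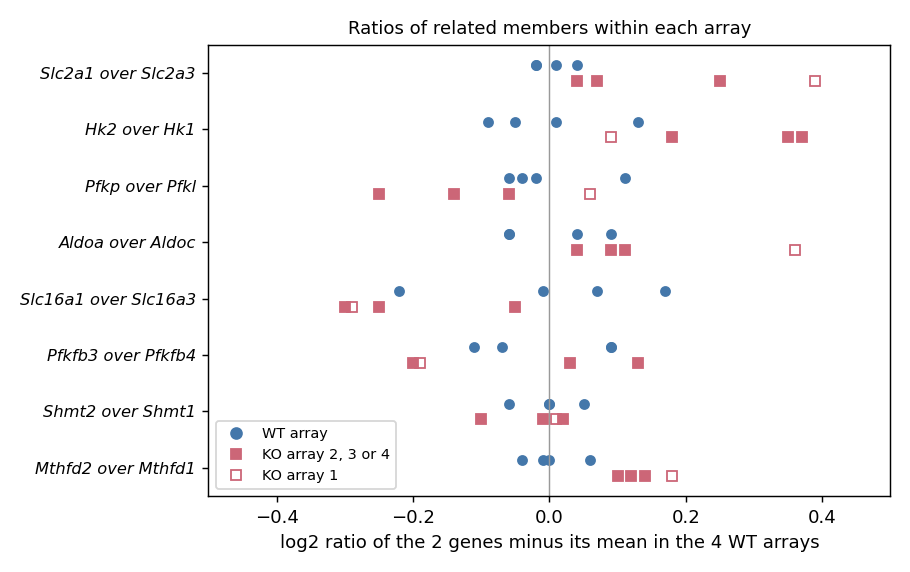
Log2 ratio of 8 pairs of related members in each array, as the distance from its mean in the 4 WT-labelled arrays (circles WT, squares KO, open square KO replicate 1; Hk1 by the probe set on its own chromosome). The squares of Mthfd2 over Mthfd1 all lie right of the circles, and those of Slc2a1 over Slc2a3 range from 0.04 to 0.39.

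Genes around these pathways were read from lists of their other enzymes, regulators and targets. Of 24 tested genes of glycolysis and pyruvate use outside the members, Ldhb alone passed, in the lower direction. Over all tested genes 1.32% passed, 0.671% in the lower direction. Ldhb, the lactate dehydrogenase subunit that favours conversion of lactate to pyruvate, fell by 0.35 on the log2 scale, from 9.35, 9.35, 9.30 and 9.50 in the WT-labelled arrays to 9.05, 9.02, 9.02 and 9.02 in the KO-labelled arrays. In this probe set, the one with the higher mean, the groups lie far apart and the KO-labelled values nearly coincide (limma adjusted p = 0.0181; exact permutation p = 0.0286). The call was lost without WT replicate 2 or KO replicate 2 or 3 (adjusted p of 0.0774 to 0.0778). It was also lost with the mean over the 2 Ldhb probe sets (-0.29, adjusted p = 0.0806). The other Ldhb set read 9.15, 9.11, 8.95 and 9.38 in the WT-labelled arrays. In the KO-labelled arrays it read 8.79, 8.81, 8.94 and 9.12, so its groups overlap (difference -0.23). The next smallest p was that of Pdp1, the phosphatase that activates pyruvate dehydrogenase (0.28, adjusted p = 0.161, and 0.0475 without KO replicate 1).

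No other pentose phosphate or one-carbon gene passed. Among 8 of the former H6pd, the microsomal first enzyme (-0.085, limma adjusted p = 0.381), and Dera, deoxyribose-phosphate aldolase (0.085, 0.448), had the smallest p. Among 22 tested serine and one-carbon genes they were Tyms, thymidylate synthase (0.21, 0.171), and Sfxn1, a mitochondrial serine transporter (0.12, 0.29). Psat1, the enzyme between Phgdh and Psph, differed by 0.07 ± 0.0491 (SE, adjusted p = 0.566).

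Of 33 tested regulators, Egln3 alone passed, higher in KO-labelled arrays, beside 1.32% of all tested genes (0.646% higher). Lower means in KO-labelled arrays were found for 25 of the 33 (75.8%, beside 57.8% of all tested genes). The median difference of the 33 was -0.0375, beside -0.0175 for all. Without KO replicate 1, 23 of 33 had lower means (69.7%, beside 54.5% of all tested genes). Egln3, a prolyl hydroxylase that marks Hif proteins for degradation and is itself a hypoxia-induced gene, read 11.12, 10.95, 11.19 and 11.33 in the WT-labelled arrays and 11.52, 11.66, 11.91 and 11.75 in the KO-labelled arrays. All KO-labelled values lay above all WT-labelled values, a difference of 0.56 ± 0.0966 (SE, limma adjusted p = 0.0303). The call was lost without WT replicate 1, 2 or 3 or KO replicate 2, 3 or 4 (adjusted p of 0.0693 to 0.109). It was also lost with no filter (0.0529). The related Egln1 differed by -0.18 ± 0.0428 (adjusted p = 0.0799) and Egln2 by -0.08 (0.6). Mxd1 and Mxd4, antagonists of Myc, differed by -0.28 (adjusted p = 0.0605) and -0.30 (0.0782) with no overlap between the groups. Groups did not overlap for 7 of the 33 regulators (21.2%), against 10.8% of all tested genes. Without KO replicate 1, Egln3 stood at an adjusted p of 0.00607, Mxd1 at 0.027, Mxd4 at 0.0341 and Egln1 at 0.0488. These calls, 1 higher and 3 lower among the 33, stand beside 6.56% of all genes in that fit. Myc differed by -0.05 (0.715), and Atf4, an activator of serine synthesis genes, by -0.12 (0.472), or -0.05 without KO replicate 1.

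Targets of the hypoxia response outside the pathways did not pass either, and 12 of 16 tested (75%) had lower means in KO-labelled arrays, beside 57.8% of all tested genes. Fam162a, a mitochondrial protein of the hypoxia response, had 10.95, 10.69, 10.80 and 10.79 in the WT-labelled arrays and 10.33, 10.43, 10.52 and 10.58 in the KO-labelled arrays (-0.34 ± 0.0709, SE, limma adjusted p = 0.0514). Ndrg1, a stress-induced gene, had 9.11, 9.17, 9.36 and 9.05 in the WT-labelled arrays and 8.94, 8.71, 8.84 and 8.79 in the KO-labelled arrays (-0.35 ± 0.075, adjusted p = 0.054). Neither pair of groups overlapped, and both genes passed without KO replicate 1 (adjusted p of 0.0285 and 0.0166), as did Plod2 (0.55 higher, 0.0322) and Anln (0.30 higher, 0.0156). These 4 of 16, 2 in each direction, stand beside 6.56% of all genes in that fit. Plod2 lay near the filter, above it in 5 of 8 arrays, and its lowest value was in KO replicate 1 (6.51). Over all arrays its groups overlapped, with a difference of 0.31 (limma adjusted p = 0.543). Those of Anln overlapped too (0.21, 0.268). Groups did not overlap for 3 of the 16 (18.8%), against 10.8% of all tested genes. Egln3 differed over all arrays in the direction opposite to Fam162a and Ndrg1. Vegfa, the classic target, differed by -0.03 (adjusted p = 0.814), or -0.0067 without KO replicate 1. The median difference over the 16 was -0.039, and -0.0054 without KO replicate 1. In the fit without KO replicate 1, 9 of 16 (56.2%) had lower means, beside 54.5% of all tested genes.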

How the data were processed

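Mouse CD4 T cell RNA (100 ng per sample, biotin label, per the labels' protocols) was measured on 8 arrays. The authors deposited log2 signals for 35556 probe sets; RMA and Partek are named in the submitters' processing notes, without versions. Array medians were close (7.35 to 7.42) but the distributions were not identical, and such values do not show how much RNA a cell held. Probe sets with 1 symbol in the platform annotation (21789) named genes, and 21698 of them matched RefSeq by Entrez identifier. Genes entered the test when above the 40th percentile of these probe sets (6.91 to 7.15) in at least 4 arrays. limma 3.58.1 (R 4.3.3) fitted KO minus WT without a block (lmFit, then eBayes), and two-sided p-values were adjusted by Benjamini-Hochberg over 11926 genes; Bcl6 was kept whatever its level. The fit was tested on simulated data with independent noise of equal spread in every array, so without an array like KO replicate 1. Every difference added there was larger than that of any member. For single genes an exact two-sided permutation test over the 8 arrays was added (smallest possible p 0.0286). No depth exists for arrays; their number limits precision.

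Values in every array are given for members past the threshold or without overlap, the 3 smallest p per pathway and 7 members set by name; Aldoc, Slc16a3, Fam162a and Ndrg1 were added after their values were seen, as were Pfkm, Pdp1, Plod2, Anln, Mxd1, Egln1, Egln2, Mxd4, Myc, Atf4, Psat1 and Vegfa by difference. Of each other list, genes past the threshold or else the 2 smallest p are named. Members, lists and motifs were chosen with earlier results of these data known. Alternatives were a repeated quantile normalization, median centring, other filters, an intensity trend, array weights, other probe set choices, a replicate block, leaving out arrays, and other thresholds.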

Additional observations from a re-analysis of the deposited data

Results flagged for a closer look

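In 2 of 72 groups of 4 values, 1 array lay far from the other 3, where chance alone gives about 3.6. Phgdh was high in WT replicate 4 (10.48, the others 10.38 to 10.39), which is the value that ties with the lowest KO array. Ldhb was high in KO replicate 1 (9.05) beside 3 KO arrays at 9.02, a gap near the rounding of the deposited values.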

How the results depend on the processing

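Over the 34 members no call was made in any setting but array weights, which called 2 glycolysis (Hk2, Slc16a3), 1 pentose phosphate (Pgls) and 1 one-carbon member (Psph), 4 in all. That setting also moved the pentose phosphate median from -0.045 to 0.0081. The count over all genes, 157 of 11926, was unstable. It was 1980 with array weights, 354 with an intensity trend, 322 after repeated quantile normalization, 78 with each array centred on its median, 58 with no filter, 443 without KO replicate 1 and WT replicate 3 together (added after seeing the data), 468 at an adjusted p under 0.1 and 27 under 0.01. It lay between 31 and 782 in the 8 fits that left 1 array out. The causes were not tested. The other 2 added settings, probe sets on the home chromosome and the filter percentile over all probe sets, changed no member's call.

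With the replicate number as a block, 36 genes passed, no member did, and Ldhb was at an adjusted p of 0.0702. Same-numbered arrays correlated in their deviations at 0.0111, 0.145, -0.174 and 0.308. The highest correlation, 0.46, was between WT replicate 3 and KO replicate 1. These values cannot decide whether same-numbered samples were processed as pairs, which the labels do not say.

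Of the 34 members 22 kept their sign in all 20 refits. The sign of the rest, none of which differed by over 0.075, turned. With array weights, Slc2a1 was 0.044, Hk1 0.003, Pfkl 0.035, Slc16a1 0.029, Pdk1 0.016, Pgd 0.076 and Shmt2 0.021. Without KO replicate 1 and WT replicate 3, Slc2a1 was 0.033, Pfkm 0.023, Slc16a1 0.0033, Pgd 0.017 and Shmt2 0.037. Repeated quantile normalization gave Pfkm 0.0027, centring gave Shmt2 0.0075, and the probe set on its own chromosome gave Hk1 0.0075. With 1 array left out, differences ran from -0.048 to 0.016 (Slc2a1), -0.045 to 0.015 (Hk1), -0.07 to 0.02 (Pfkm), -0.052 to 0.065 (Tpi1), -0.013 to 0.057 (Pgk1), -0.049 to 0.018 (Slc16a1), -0.11 to 0.025 (Pgd), -0.039 to 0.088 (Rpia), -0.016 to 0.054 (Shmt1) and -0.017 to 0.027 (Shmt2).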
